A study of Mus musculus with 6 samples.

Results

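The Iroquois homeobox genes Irx1 to Irx6 were examined in bulk RNA-seq of maxillary prominences from mouse embryos at E12.5. The members are the 6 genes of the family, out of 53801 genes in the count files. They were chosen from the same comparison that is described here, because their levels in Dlx2-overexpressing tissue had been seen to differ from wild type. Their values between genotypes are therefore given as a description, without a test, and the calls counted for them lend no support to a difference. The wild-type levels and the neighboring genes were not part of that choice. The other gene lists were written with earlier results of these data known, so they are not independent of it.

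The Irx genes encode transcription factors of the TALE class, whose homeodomain carries an extra loop between its first and second helix. The mouse genome holds them as a pair of gene clusters that arose by duplication, so each gene of a cluster has a closest relative in the other. They act in the patterning of the neural plate, heart, limb bud and skeleton, and are usually expressed in territories of a tissue rather than throughout it. The maxillary prominence, which forms the upper jaw, consists mainly of mesenchyme derived from cranial neural crest under an epithelium.

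The study asked what an excess of the homeobox factor Dlx2 in the neural crest does to the transcriptome of this tissue. WT embryos were compared with Wnt1cre; Rosa26Dlx2/- embryos, called Dlx2OE, with 3 RNA samples of each genotype. Dlx2OE embryos carry 1 copy of a CAG-LSL-Dlx2-3xFlag transgene in the Rosa26 locus, whose stop cassette is removed by a Cre under the control of Wnt1, a gene active in the dorsal neural tube and premigratory neural crest. The transgenic line was made on a C57BL/6J background, and the WT group is labeled as wild type, with no Cre allele named. The Cre driver targets the crest-derived cells, and the epithelium of the prominence is not derived from them. RNA was prepared from dissected prominences of several littermates, so a sample may hold more than 1 embryo, and the p-values below measure only the spread between these samples.

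The gene counts of a sample added up to between 26155500 and 31308813 read pairs, and 17514 genes passed the filter on low counts, all 6 Irx genes among them. Irx4 and Irx6 passed only through the Dlx2OE samples, so for them the filter fixed the direction. Levels are given as CPM, counts relative to the TMM-scaled library total, and 3 counts correspond to 0.0955 to 0.111 CPM. Errors after ± are SDs over the 3 samples of a genotype (n = 3), and SE is the standard error of a log2 fold change. Dlx2 itself, for which endogenous and transgenic RNA cannot be told apart here, had 1255, 1056 and 1409 counts in the WT samples against 3521, 4102 and 3336 in the Dlx2OE samples, a 3.03-fold difference with no overlap. Dlx2OE sample 3 stood apart, with 15.4% of its reads outside annotated genes against 5.34% to 8.21% in the other samples. All 10 listed maxillary mesenchyme markers were expressed in every sample, and their summed level was 1711 to 2091 CPM in WT and 2119 to 2604 CPM in Dlx2OE. Of these markers, Twist1 alone passed an adjusted p of 0.05 in edgeR's quasi-likelihood test (adjusted p = 0.0402), with a log2 fold change of 0.65, and none passed the threshold of 1.

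In GENCODE M21 on the build GRCm38 (mm10), Irx1 (ENSMUSG00000060969) lies at chr13:71957921-71963723 on the reverse strand. Irx2 (ENSMUSG00000001504) lies at chr13:72628820-72634198 and Irx4 (ENSMUSG00000021604) at chr13:73260479-73269608, both on the forward strand. This cluster spans 1312 kb. The other cluster spans 882 kb and consists of Irx3 (ENSMUSG00000031734) at chr8:91798525-91802067 on the reverse strand, Irx5 (ENSMUSG00000031737) at chr8:92357625-92376286 and Irx6 (ENSMUSG00000031738) at chr8:92674288-92680956, both on the forward strand. Both clusters thus have the same arrangement, with the first gene transcribed away from the other 2, which follow on the opposite strand.

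Because near-identical copies could share reads, the coding sequences of the 6 genes were compared. The most conserved stretch of 189 bases, which falls in the homeobox region, was 86.8% to 92.6% identical between members. Within it, the following 60 bases of each gene, from the GENCODE transcripts, show how close the members are, and capitals mark bases that differ from Irx1.
Irx1: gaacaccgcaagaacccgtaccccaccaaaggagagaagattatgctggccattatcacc
Irx2: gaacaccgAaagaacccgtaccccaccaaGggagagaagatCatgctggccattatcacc
Irx4: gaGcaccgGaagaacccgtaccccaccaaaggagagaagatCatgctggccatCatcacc
Irx3: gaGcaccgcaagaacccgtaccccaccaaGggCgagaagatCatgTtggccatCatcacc
Irx5: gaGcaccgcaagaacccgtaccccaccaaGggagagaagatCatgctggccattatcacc
Irx6: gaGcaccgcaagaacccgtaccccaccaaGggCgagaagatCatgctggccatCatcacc
These stretches differ from Irx1 at 3 to 6 of 60 positions and each lies in 1 coding exon: chr13:71960061-71960120 for Irx1, chr13:72630724-72630783 for Irx2, chr13:73267583-73267642 for Irx4, chr8:91800565-91800624 for Irx3, chr8:92359687-92359746 for Irx5 and chr8:92677296-92677355 for Irx6.

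Over the whole coding sequence the closest pairs were Irx1 with Irx3 (56.5% of aligned bases identical), Irx2 with Irx5 (58.4%) and Irx4 with Irx6 (56.3%). The other 12 pairs were 47.6% to 51.1% identical. The longest stretch that any 2 members shared without a mismatch was 88 bases, between the transcripts of Irx3 and Irx6, and the next was 65 bases. Both are shorter than the 150-base reads of this study.

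In WT tissue the family covered a wide range of levels. Per length, as RPKM, the TMM-scaled CPM divided by the exon length in kilobases, Irx3 was highest at 6.28 ± 0.351, followed by Irx5 at 3.94 ± 0.498, Irx1 at 3.81 ± 0.545, Irx2 at 1.27 ± 0.179, Irx4 at 0.148 ± 0.0476 and Irx6 at 0.0976 ± 0.0412. The ranges of Irx5 and Irx1 overlapped, as did those of Irx4 and Irx6, whereas the other neighbors in this order were separated in all 3 samples. With the coding length in place of the exon length, Irx6 and Irx4 came to 0.250 and 0.249 RPKM, so their order is not fixed by these data. The lowest member of each cluster in WT was thus one of the closest pair Irx4 and Irx6, and the highest of chromosome 8 was Irx3.

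Irx1, which acts in lung, heart and limb development, had 317, 251 and 336 counts in the WT samples, in the order of their numbers, and 1829, 568 and 867 counts in the Dlx2OE samples. The means were 9.98 ± 1.43 CPM for WT against 37.3 ± 22.3 CPM for Dlx2OE, which is 3.73-fold or 1.90 (SE 0.399) on the log2 scale. Every Dlx2OE sample lay above every WT sample, but sample 1 of Dlx2OE was 3.41 times sample 2, the widest spread of the family.

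Irx2, its neighbor and a gene of the limb and nervous system, had 126, 141 and 110 counts in WT and 1083, 399 and 650 counts in Dlx2OE. Mean levels of 4.17 ± 0.587 and 24.4 ± 11.9 CPM gave a log2 fold change of 2.55 (SE 0.364), or 5.85-fold. The groups did not overlap, and the Dlx2OE samples followed the same order as for Irx1, with sample 1 highest and sample 2 lowest.

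Irx4, best known as a ventricular gene of the heart, was close to the limit of detection in WT, with 11, 8 and 16 counts. It had 811, 308 and 419 counts in Dlx2OE, and the study had already named Irx4 among its most upregulated genes. The means of 0.385 ± 0.124 and 17.6 ± 8.97 CPM differ by 5.49 (SE 0.470) on the log2 scale, or 45.0-fold, the seventh value from the top among all genes tested. Per length, the Dlx2OE samples held Irx4 at 3.76 to 10.5 RPKM, above the WT range of Irx2 at 1.07 to 1.43 RPKM.

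Irx3, which acts in the spinal cord, limb and heart, had 475, 541 and 557 counts in WT and 3158, 1760 and 1670 counts in Dlx2OE. It averaged 17.3 ± 0.970 CPM in the WT samples, the smallest relative spread of the family, against 74.8 ± 27.7 CPM in Dlx2OE, and this is 4.31-fold or 2.11 (SE 0.239) on the log2 scale. Sample 1 was again highest, and samples 2 and 3 were close to each other. An antisense gene covers 4.49% of the Irx3 exons, and the library kit does not keep strand.

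Irx5, which shares much of the expression of Irx3 in the limb and heart, had 308, 394 and 416 counts in WT and 2331, 1520 and 1364 counts in Dlx2OE. These gave 12.3 ± 1.56 CPM for WT against 59.1 ± 16.9 CPM for Dlx2OE, 4.80-fold apart, with a log2 fold change of 2.26 (SE 0.210). The groups did not overlap, and the Dlx2OE samples differed by 1.63-fold.

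Irx6, a gene described in retinal interneurons, was the weakest member of the family per length in Dlx2OE, at 0.895 ± 0.182 RPKM. It had 5, 13 and 12 counts in WT and 72, 93 and 99 counts in Dlx2OE, which gave 0.329 ± 0.139 and 3.02 ± 0.614 CPM and a 9.03-fold difference, or 3.18 (SE 0.382) as log2. Unlike the other members, Irx6 was lowest in Dlx2OE sample 1 and highest in sample 3. Part of its exon sequence (4.51%) is shared with the annotated gene Gm45505.

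**Figure D1:**
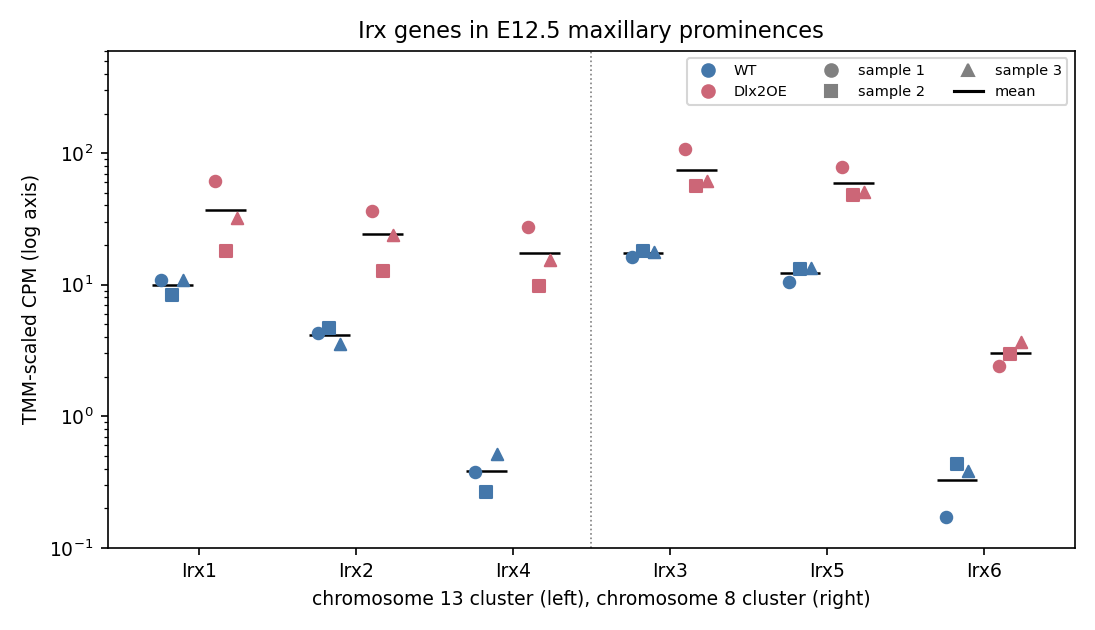
Level of each Irx gene in each sample, as TMM-scaled CPM on a log axis. Blue symbols are the 3 WT samples, red symbols the 3 Dlx2OE samples, the shape gives the sample number and the black line is the group mean. In all 6 genes the Dlx2OE samples lie above the WT samples, and Irx4 moves from 0.385 to 17.6 CPM on average.

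A gene was called when the Benjamini-Hochberg adjusted p of edgeR's quasi-likelihood test was under 0.05 and its log2 fold change was beyond 1. All 6 genes were called higher, as were 262 of 17514 genes (1.5%), with 546 (3.12%) called in either direction. In all 6 the Dlx2OE samples lay above the WT samples, as in 2932 genes (16.7%). Since the genes were selected on this contrast, nothing is read from these counts. The median log2 fold change of all tested genes was 0.0028, and 1.52% of them were at or above that of Irx1, the lowest of the family. When each sample was left out in turn, Irx4, Irx5 and Irx6 were called in all 6 fits, Irx3 in 5, Irx2 in 4 and Irx1 in 2. The call of Irx3 was lost without WT sample 2, that of Irx2 without WT sample 1 or 2, and that of Irx1 without any of the WT samples or Dlx2OE sample 3. The log2 fold change of Irx1 ranged from 1.32 without Dlx2OE sample 1 to 2.23 without Dlx2OE sample 2. Because whole tissue was sequenced, more cells expressing a gene and more RNA per cell cannot be told apart.

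The clusters were compared side by side. The median log2 fold change was 2.55 for the chromosome 13 genes, from 1.90 to 5.49, and 2.26 for the chromosome 8 genes, from 2.11 to 3.18. In each cluster the gene farthest along the forward strand, Irx4 or Irx6, was the lowest in WT and had the largest fold. Both passed the low-count filter only through the Dlx2OE samples, so their low WT level and large fold are not separate observations. Without Dlx2OE sample 1, in which 5 of the 6 members were highest, the medians were 2.13 and 1.99.

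Among the Dlx2OE samples, 5 of the 6 members, those of chromosome 13 and Irx3 and Irx5 of chromosome 8, had the order of sample 1, sample 3 and sample 2. Irx6 alone departed from it, with sample 3 highest and sample 1 lowest. The highest sample over the lowest was 3.41 for Irx1, 2.88 for Irx2 and 2.79 for Irx4 on chromosome 13, and 1.90 for Irx3, 1.63 for Irx5 and 1.50 for Irx6 on chromosome 8. The Dlx2 counts of the same samples followed neither order, being highest in sample 2. With 3 samples, the difference in spread between the clusters was not tested.

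**Figure D2:**
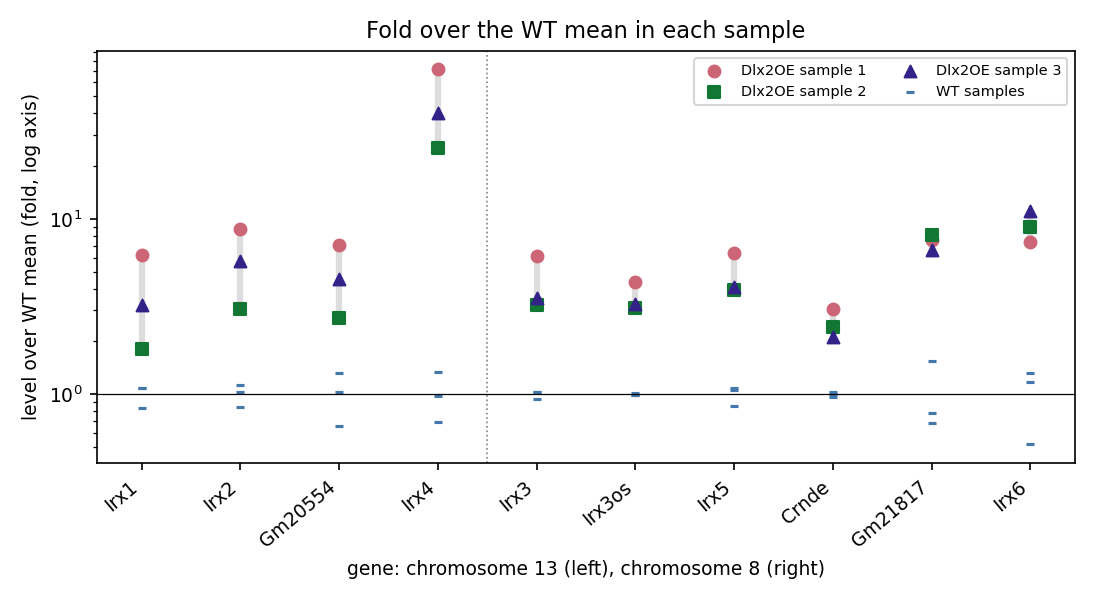
Level of each Irx gene and of 4 non-coding neighbors in each sample, divided by the WT mean, on a log axis. Blue dashes are WT samples and symbols are Dlx2OE samples 1 to 3. The chromosome 13 genes, Irx3, Irx3os and Irx5 have the order of sample 1, sample 3 and sample 2, and Irx6 has sample 3 at the top with 11.1 times the WT mean.

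The makeup of the family is described for each genotype, without a test. The summed level of the 6 genes was 15.5 ± 0.676 RPKM in WT and 75.3 ± 30.6 RPKM in Dlx2OE, a ratio of 4.84, with 110 RPKM in Dlx2OE sample 1, 51.2 in sample 2 and 65.0 in sample 3. Irx4 made up 0.946% of this sum in WT and 8.69% in Dlx2OE. These shares restate the levels of genes chosen on this contrast, and Irx4 passed the low-count filter only through the Dlx2OE samples. Irx3 remained the largest part, at 40.4% and 36.4%, followed in Dlx2OE by Irx5 at 26.0% and Irx1 at 17.9%. The order of the mean levels per exon length was the same in Dlx2OE as in WT and held within each of the 3 Dlx2OE samples. The Dlx2OE ranges of neighbors overlapped except for Irx4 over Irx6. In WT, Irx5 over Irx1 and Irx4 over Irx6 held in 2 samples each. The WT order of Irx4 and Irx6 also depended on the length used, so it cannot be called preserved.

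The genes around the clusters were then tested, since their positions did not enter the choice of the members. Within 1 Mb of either cluster the files list 117 other genes, of which 36 had enough counts, and 6 of these were called, all higher in Dlx2OE. Between the members, 24 genes were listed, 6 were tested and 5 were called, none of them protein-coding. Without the 2 called genes that entered the test only through their Dlx2OE counts, 3 of 4 were called. Of these 3, Gm20554 and Irx3os may hold reads of Irx2 and Irx3. Over all tested genes, 3.12% were called in either direction. Of 30 tested genes in the flanks, 1 was called. No gene on the outer side of Irx1 had enough counts for a test.

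Gm20554 (ENSMUSG00000093587), a lincRNA, begins 255 bp from Irx2 and is transcribed away from it. It rose from 0.632 ± 0.207 to 3.03 ± 1.39 CPM with a log2 fold change of 2.25 (SE 0.430, edgeR adjusted p = 0.0289). The Dlx2OE samples had 4.49, 1.72 and 2.88 CPM, the sample order of Irx2. In GENCODE its exon does not overlap another gene. Without strand, however, reads of any Irx2 transcript that begins upstream across Gm20554 could not be told apart from those of Gm20554.

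Crnde (ENSMUSG00000031736), a non-coding gene that faces Irx5 across 1504 bp, had 6.53, 6.77 and 6.99 CPM in WT and 20.6, 16.4 and 14.3 CPM in Dlx2OE. This is a log2 fold change of 1.34 (SE 0.177, edgeR adjusted p = 0.0116), with no overlap between the groups. Irx3os (ENSMUSG00000046413), the antisense gene of Irx3, had 1.19 to 1.22 CPM in WT and 3.73 to 5.23 CPM in Dlx2OE, a log2 fold change of 1.83 (SE 0.242, edgeR adjusted p = 0.0116). Part of its exon sequence (3.33%) overlaps another gene, so its counts may hold reads of Irx3.

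The 2 other lincRNAs of the chromosome 8 cluster were low. Gm21817 (ENSMUSG00000095651), 18374 bp from Irx5, averaged 0.289 ± 0.135 CPM in WT against 2.15 ± 0.206 CPM in Dlx2OE, a log2 fold change of 2.88 (SE 0.366, edgeR adjusted p = 0.0104). It lies within the span of Crnde on the same strand, without exon overlap, so its counts may hold reads of Crnde introns. Gm45336 (ENSMUSG00000110290), between Irx5 and Irx6, had 3 counts over all WT samples and 52 over all Dlx2OE samples, a ratio of 17.8 with an exact 95% interval of 5.77 to 89.2 that covers counting error only (edgeR adjusted p = 0.0184). The processed pseudogene Rpl9-ps4, between Irx1 and Irx2, was the one tested gene inside a cluster that was not called, at 0.800 and 0.363 CPM on average (log2 fold change -1.13, edgeR adjusted p = 0.0920). Gm21817 and Gm45336 passed the low-count filter only through the Dlx2OE samples, so their direction was fixed by the filter. Neighbors low in both genotypes were not tested, and of 14 genes annotated between the members on chromosome 8, 4 were. The number of called neighbors was 0 without WT sample 2, 2 without WT sample 1 and 9 without Dlx2OE sample 1. Gm21817 and Irx3os were called in 5 of the 6 fits that left out a sample, Crnde in 4, and Gm20554 and Gm45336 in 3.

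Of the 23 flanking protein-coding genes tested, 1 was called. On the chromosome 8 side next to Irx3, Fto, an RNA demethylase gene whose introns are known to hold enhancers of Irx3 and Irx5, averaged 126.6 ± 17.4 CPM in WT against 132.6 ± 12.3 CPM in Dlx2OE, a log2 fold change of 0.07 (SE 0.128, edgeR adjusted p = 0.747). The nearest tested gene on that side, the lincRNA Gm36325, had 0.460 and 0.812 CPM on average (log2 fold change 0.81, edgeR adjusted p = 0.207). Mmp2, a matrix metalloproteinase gene 146 kb beyond Irx6, had a log2 fold change of -0.36 (SE 0.0948, edgeR adjusted p = 0.0582). Beyond Irx4 the nearest tested gene was the pseudogene Gm10263 with a log2 fold change of 0.18 (edgeR adjusted p = 0.708). Ndufs6, a subunit gene of respiratory complex I 50.2 kb beyond Irx4, had -0.93 (SE 0.226, edgeR adjusted p = 0.0503).

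Ahrr, the repressor of the aryl hydrocarbon receptor, was the called gene of the flanks, 942 kb from Irx4. It averaged 2.10 ± 0.369 CPM in WT against 4.22 ± 0.355 CPM in Dlx2OE, 1.00 on the log2 scale (SE 0.229, edgeR adjusted p = 0.0430). It was called in 1 of the 6 fits that left out a sample, the one without Dlx2OE sample 1. The difference between the flanking genes and those between the members was not tested.

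**Figure D3:**
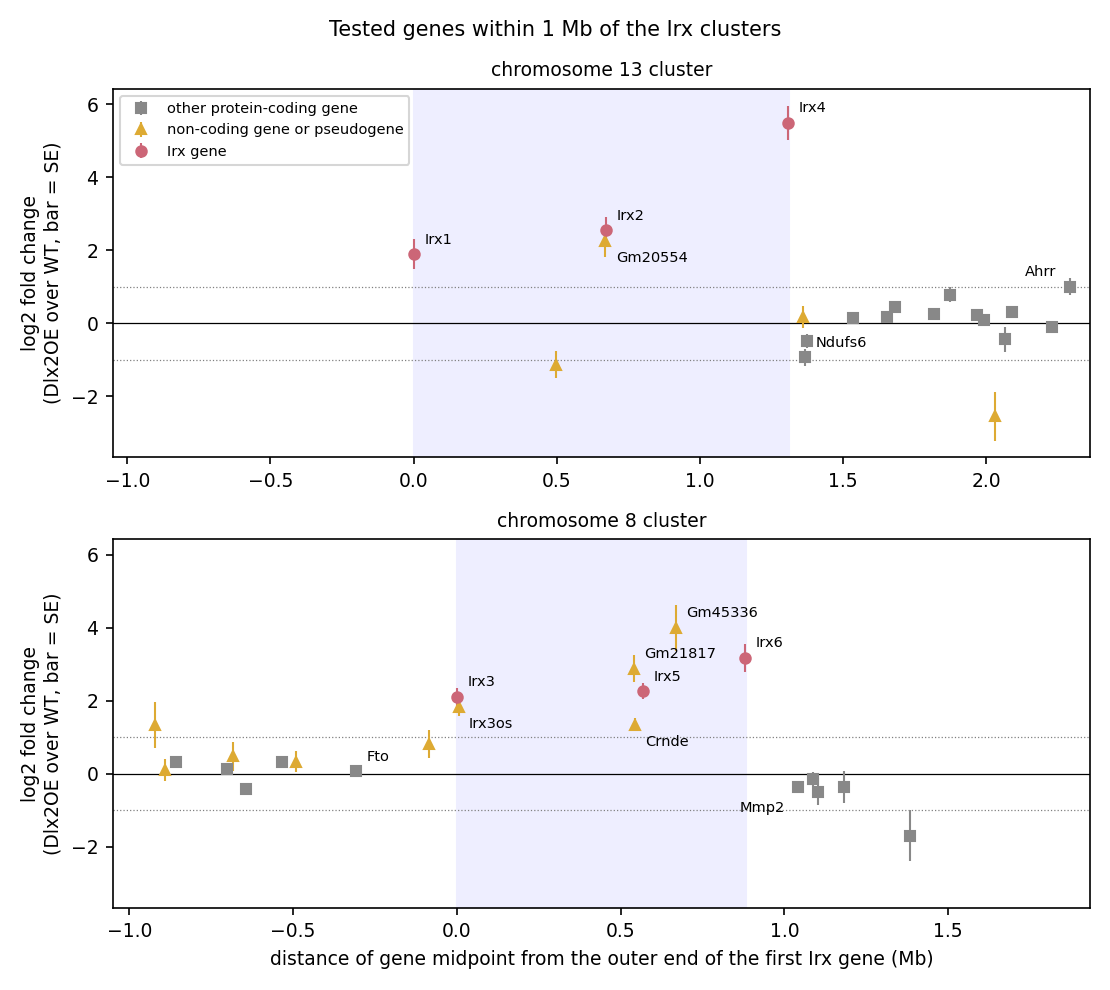
Log2 fold change of every tested gene within 1 Mb of the chromosome 13 cluster (top) and the chromosome 8 cluster (bottom), with its SE, against the distance from the outer end of the first Irx gene. Red circles are Irx genes, yellow triangles non-coding genes or pseudogenes, grey squares other protein-coding genes, and the shaded band is the cluster. Inside the bands 5 of the 6 genes that are not Irx genes were called, and outside them Ahrr was the 1 called gene of 30. Among the 5, Gm21817 and Gm45336 passed the low-count filter only through Dlx2OE, and Gm20554 and Irx3os may hold reads of Irx2 and Irx3. Gm21817 lies within the span of Crnde on the same strand and may hold its reads.

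Upstream regions are shown for Irx2, for Irx4 and for Crnde, the gene that faces Irx5. The RefSeq promoter windows of GRCm38.p6 cover 3 of the 6 members (Irx2, Irx3 and Irx4). The bases before the start of Irx2 fill nearly the whole gap to Gm20554, chr13:72628570-72628819 on the forward strand. Those before Irx4 are chr13:73260247-73260478 on the forward strand, and those before Crnde, on the side of Irx5, are chr8:92356121-92356370 on the reverse strand. Capitals mark TAAT, the core of many homeodomain sites, CCAAT and GGGCGG, each searched on both strands, with no overlap between matches.
Irx2: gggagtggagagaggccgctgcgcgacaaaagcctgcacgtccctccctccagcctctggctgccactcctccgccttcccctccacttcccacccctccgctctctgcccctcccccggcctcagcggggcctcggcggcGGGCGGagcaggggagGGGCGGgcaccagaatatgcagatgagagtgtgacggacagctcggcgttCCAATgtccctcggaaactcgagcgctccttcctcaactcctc
Irx4: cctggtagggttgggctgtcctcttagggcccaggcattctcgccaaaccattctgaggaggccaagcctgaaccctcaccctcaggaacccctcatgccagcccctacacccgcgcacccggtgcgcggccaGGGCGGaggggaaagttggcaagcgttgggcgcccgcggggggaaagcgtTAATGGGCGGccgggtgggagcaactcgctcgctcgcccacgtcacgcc
Crnde: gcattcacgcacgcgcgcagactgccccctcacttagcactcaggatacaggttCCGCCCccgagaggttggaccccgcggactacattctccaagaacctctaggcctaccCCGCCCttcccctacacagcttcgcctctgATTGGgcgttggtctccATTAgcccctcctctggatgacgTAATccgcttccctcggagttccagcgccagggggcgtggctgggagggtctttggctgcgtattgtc

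These regions are rich in G and C, with 68.4% in the Irx2 stretch, 68.1% in the Irx4 stretch and 62.0% in the Crnde stretch, against a median of 52.7% over the 32851 promoter windows of 300 bases. TAAT occurs in 58.0% of all windows. The Irx2 window held none, that of Irx4 held 1 and that of Crnde held 2. GGGCGG occurs in 35.7% of all windows and was found 2 times in each of the windows of Irx2 and Irx4 and 3 times in that of Crnde. CCAAT occurs in 37.4% of windows and was found once in those of Irx2 and Crnde. The longer homeodomain motif TAATTA (5.29% of windows), the motif ACANNTGT described for Irx proteins (7.38%) and TATAAA (13.6%) had no match in the windows of Irx2, Irx3, Irx4, Irx3os, Crnde and Gm20554. TAATTA holds TAAT on both strands, so its matches are also matches of the shorter motif.

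The other genes of the TALE class include Meis and Pbx, the partners of Hox proteins. None of the 12 tested was called in edgeR's quasi-likelihood test or with DESeq2, and 1 had an unadjusted p under 0.05. Their median log2 fold change was -0.14. The exception in p was Mkx, a tendon regulator closely related to the Irx genes, with 24.3, 25.4 and 24.4 CPM in WT and 11.0, 12.3 and 15.0 CPM in Dlx2OE. It fell by 0.95 on the log2 scale (SE 0.146, edgeR adjusted p = 0.0160), short of the threshold of 1. Among the others, log2 fold changes ran from -0.63 for Pknox2 (edgeR adjusted p = 0.232) to 0.33 for Meis3 (edgeR adjusted p = 0.185), and Tgif1 had -0.14 (edgeR adjusted p = 0.331).

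Of 9 genes described as partners or targets of Irx proteins in other tissues, 8 were tested, with 1 called higher and 1 lower. Over all tested genes, 3.12% were called in either direction. Trps1, a GATA-type factor of cartilage and hair follicles, had 92.8, 70.0 and 98.5 CPM in WT and 431, 288 and 237 CPM in Dlx2OE, a log2 fold change of 1.87 (SE 0.235, edgeR adjusted p = 0.0101). Kcnd2, a potassium channel gene that Irx5 represses in the heart, had 3.90, 5.11 and 5.10 CPM in WT and 1.76, 1.18 and 2.14 CPM in Dlx2OE. It fell by 1.48 on the log2 scale (SE 0.282, edgeR adjusted p = 0.0291). The gap junction gene Gja1 had a log2 fold change of 0.87 (edgeR adjusted p = 0.0539), the chemokine gene Cxcl12 had -0.63 (edgeR adjusted p = 0.0801) and the guidance gene Slit1 had 1.59 (edgeR adjusted p = 0.137). Bmp10, a heart gene, had no counts in any sample. The call of Trps1 was lost without WT sample 2, and that of Kcnd2 without WT sample 1 or 2 or Dlx2OE sample 2.

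Irx genes in other tissues respond to Hedgehog, Wnt and BMP signals, so 12 readout genes of these pathways were listed. The study had already reported Lef1 and Axin2 as higher in these data. Of the 12, 3 were called higher and 1 lower, against 1.5% of all tested genes called higher and 3.12% in either direction. The 3 were genes of the Wnt pathway: Lef1, which rose from 14.0 to 131.3 CPM on average (log2 fold change 3.23, edgeR adjusted p = 4.93e-04), Axin2, with 42.2 and 144.1 CPM (1.77, edgeR adjusted p = 0.00552), and Nkd1, with 27.0 and 113.2 CPM (2.07, edgeR adjusted p = 0.00942). In all 3, Dlx2OE sample 1 was highest, as for 5 of the Irx genes. Lef1 and Axin2 were lowest in sample 3, unlike those Irx genes, while Nkd1 was lowest in sample 2, close to sample 3. The Hedgehog antagonist Hhip fell from 19.9 to 8.93 CPM (log2 fold change -1.15, edgeR adjusted p = 0.0192), while Gli1, a direct Hedgehog target, had 84.7 and 93.5 CPM (edgeR adjusted p = 0.470). Lef1 and Axin2 were called in all 6 fits that left out a sample, Nkd1 in 5 and Hhip in 3. A link between these genes and the Irx family was not tested.

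The genes with the most similar pattern were found as those with the smallest root mean square difference of mean-centered log2 CPM over the 6 samples, among 13225 genes with a mean log2 CPM of at least 1. Glis3 was nearest to Irx3 (0.0722) and second to Irx5 (0.116), and Irx5 itself was second to Irx3 (0.130), ahead of Tnfrsf19 (0.139). Lvrn (0.104) and Tmem132c (0.125) were the other 2 nearest to Irx5. For Irx1 they were Shc3 (0.205), Tfap2a (0.273) and Syne1 (0.293). For Irx2 they were Ntng2 (0.298), Irx3 (0.328) and Irx5 (0.347), both of the other cluster.

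Irx4 had the most distant neighbors, and the distances for Irx6 were near those for Irx2. The mean log2 CPM of Irx6 itself was 0.099, below the level set for the compared genes. Nearest to Irx4 were Cxcl14 (0.582), Wnt9b (0.713) and Wnt3 (0.845). Cxcl14 had 34.4, 26.3 and 52.6 CPM in WT and 1006, 434.8 and 512.9 CPM in Dlx2OE, so it shared the order of the Dlx2OE samples with Irx4. Wnt9b and Wnt3 did not share it, as both were lowest in Dlx2OE sample 3. Nearest to Irx6 were Sstr1 (0.322), Lix1 (0.362) and Cbln4 (0.404). The measure is carried largely by the difference between genotypes that all these genes have, and it is given as a description.

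Markers of other cells moved between the samples, and their values are given beside the Irx genes. The summed level of 11 epithelium markers was 812 to 1427 CPM in WT, 1839 CPM in Dlx2OE sample 1 and 612 and 598 CPM in samples 2 and 3, and none of the 11 was absent. In sample 1, 1027 CPM of the sum came from Krt5 and Krt14. The other 9 markers summed to 812 CPM there, within their WT range of 640 to 1082 CPM. They summed to 378 and 338 CPM in samples 2 and 3. Over the list, Krt8, Krt18 and Cldn7 were called lower and none higher. Krt5, a keratin of basal epithelial cells, had 42.7, 91.7 and 79.5 CPM in WT and 537.6, 120.5 and 147.2 CPM in Dlx2OE, a log2 fold change of 1.91 (edgeR adjusted p = 0.0792). It lay above every WT sample in all 3 Dlx2OE samples and had the sample order of 5 of the Irx genes. Krt5 was named after its values were seen and had the highest log2 fold change of the 11 markers, whose median was -0.47. The epithelium sum lay below every WT sample in Dlx2OE samples 2 and 3. The part of epithelial cells in the level of the Irx genes was not tested. The fits without sample 1 gave log2 fold changes of 1.32 for Irx1, 2.13 for Irx2, 5.01 for Irx4, 1.75 for Irx3, 1.99 for Irx5 and 3.30 for Irx6.

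The sum of 9 sensory neuron markers was 92.8 to 348 CPM in WT and 199, 550 and 1151 CPM in Dlx2OE samples 1 to 3. None of the 9 was called, but all had a higher mean in Dlx2OE, with log2 fold changes from 0.62 to 4.47 and a median of 1.65. Irx6 followed the same order of the Dlx2OE samples. The share of reads outside annotated genes had this order too, at 6.03%, 8.21% and 15.4%, and the match was not tested. In sample 1, where the neuronal sum lay within the WT range and the 6 glia and Schwann precursor markers summed to 93.2 CPM against 141 to 148 CPM in WT, Irx6 was at 7.39 times its WT mean. Without Dlx2OE sample 3, the sample with the highest neuronal sum, the log2 fold change of Irx6 was 3.02. The glia sum was 190 and 316 CPM in Dlx2OE samples 2 and 3, with no gene of 5 tested called. Of 8 tested neural tube progenitor markers none was called higher, Sox2 was among those called lower, and the list summed to 209 to 308 CPM in WT and 166 to 205 CPM in Dlx2OE. The part of these cells in the level of the Irx genes was not tested.

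Cardiac muscle, which expresses Irx4, was looked for with 8 markers. They summed to 2.63 to 3.29 CPM in WT and 2.40 to 4.33 CPM in Dlx2OE, and Nppa, Mybpc3, Nkx2-5 and Myl7 were at 0 or near it in every sample. Of the 3 tested, Tbx5, which is also a limb and eye gene, was called higher. It had 0 counts in every WT sample and 0.743, 1.15 and 0.554 CPM in Dlx2OE, at least 8.19-fold higher against a floor of 3 counts in each WT library (edgeR adjusted p = 0.0150). It was called in 4 of the 6 fits that left out a sample, passed the low-count filter only through Dlx2OE and had no adjusted p in DESeq2. Among 8 retina and lens markers, whose sums were 2.97 to 3.91 CPM in WT and 4.15 to 7.20 CPM in Dlx2OE, none of 3 tested was called.

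In the remaining lists no gene was called higher. Endothelium markers summed to 307 to 456 CPM in WT and 218 to 345 CPM in Dlx2OE, skeletal muscle markers to 101 to 202 and 45.1 to 131 CPM, and macrophage markers to 48.3 to 50.0 and 30.5 to 42.2 CPM, with no call among the 8, 8 and 6 tested genes. Erythroid markers summed to 2595 to 3354 CPM in WT and 1604 to 2154 CPM in Dlx2OE, and Hba-a2 of 6 tested genes was called lower.

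**Figure D4:**
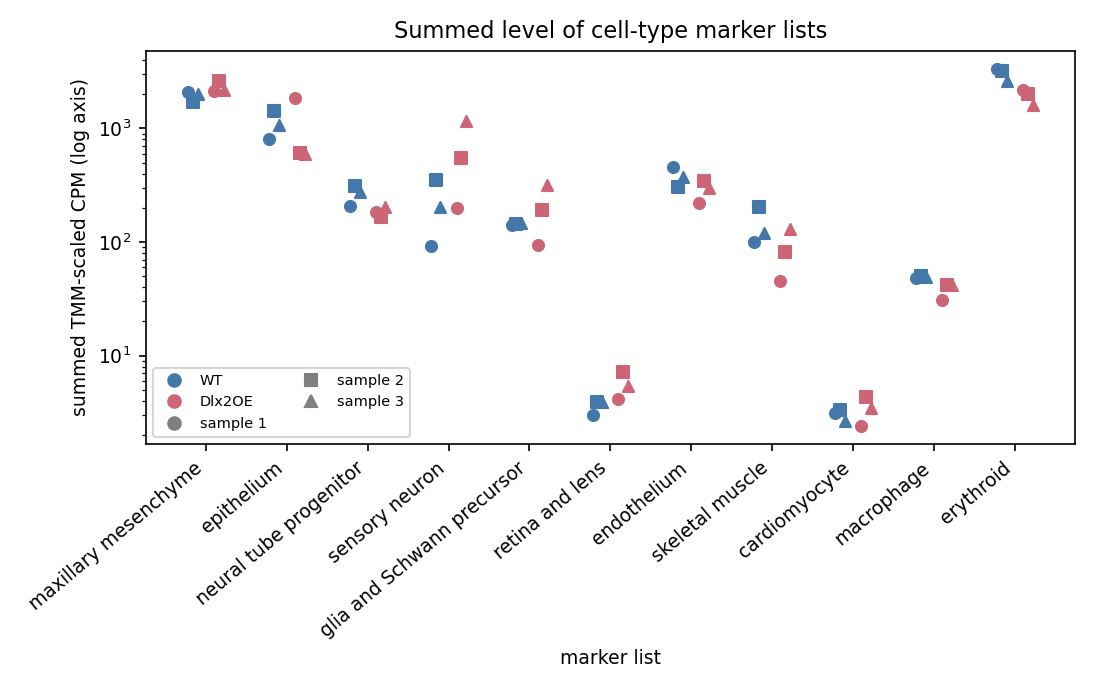
Summed level of each list of cell-type markers in each sample, as TMM-scaled CPM on a log axis. Blue symbols are WT samples, red symbols Dlx2OE samples, and the shape gives the sample number. The epithelium sum is highest in Dlx2OE sample 1 (1839 CPM) and the sensory neuron sum in Dlx2OE sample 3 (1151 CPM). In Dlx2OE sample 1, Krt5 and Krt14 give 1027 CPM of the epithelium sum, and the other 9 markers sum to a value within their WT range.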

How the data were processed

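RNA-seq counts of 3 WT and 3 Dlx2OE samples were used, grouped by the sample labels. The authors trimmed the reads, mapped them to mm10 with STAR 2.7.3a, counted them per gene with HTSeq 0.12.4 in union mode, and deposited raw counts without normalization. The annotation release and strand setting of the counting are not given in the sources used here. The methods name 6 littermates as the source of RNA and the labels 7. The summary lines for unassigned reads were left out of totals and tests. They held 5.34% to 15.4% of reads for no feature and 6.26% to 7.36% for ambiguous reads.

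Symbols and positions came from GENCODE M21, which matched 53706 of 53801 identifiers. Genes were kept with filterByExpr (minimum count of 10), scaled by TMM and tested with edgeR 4.0.16 in R 4.3.3 by the quasi-likelihood F test on genotype, with Benjamini-Hochberg adjustment over 17514 genes. A call was an adjusted p under 0.05 with a log2 fold change above 1 or below -1, as in the study's methods. The SE was taken from the fold change and the F statistic. Log2 CPM used a prior count of 2, and the floor of 3 counts covers counting error only. For 3 samples against 3, an exact two-sided permutation test cannot give a p under 0.1, so none was run. On data simulated from these samples with 200 changed genes, edgeR recovered 88.5% of them, with 3 false calls among 17195 genes. DESeq2 recovered 83.5%, with 12 false calls. The simulated data held no outlying sample, unlike the real data, so these values do not give the error of the calls here.

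The members and lists were chosen with earlier results of these data known. Named besides the members were Dlx2, called neighbors and list genes, the nearest tested neighbor on each side, up to 3 further genes with the smallest p of the TALE and partner lists, and the 3 nearest patterns of each member. Fto, Ndufs6, Mmp2, Rpl9-ps4, Gli1, Krt5, Krt14 and unchanged heart markers were named after their values were seen. Not every called gene of the marker lists is reported here. Proteins were aligned with MAFFT 7.526 from translated GENCODE coding sequences, and promoter windows are from RefSeq. DESeq2 1.42.0, other scalings, filters, windows and lengths, a replicate block and the removal of each sample were the alternatives.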

Additional observations from a re-analysis of the deposited data

How the results depend on the processing

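No Irx gene and no cluster median changed direction under the alternatives run, whereas Fto, near 0, ranged from -0.03 to 0.16 when samples were left out. Calls depended on single samples: leaving out each sample in turn gave 3 to 6 called Irx genes, 0 to 9 neighbors, 0 to 1 other TALE genes, 0 to 3 partners or targets and 74 to 1173 genes in all. Fewer genes were called without WT replicate 2 (74) and more without Dlx2OE replicate 1 (1173), and the cause was not tested. Medians of the clusters were 2.13 to 2.86 on chromosome 13 and 1.99 to 2.39 on chromosome 8 in those fits. Over all genes, calls were 1003 without a filter on low counts, 813 with DESeq2 and 1130 at any fold change, a setting in which Mkx made 1 called TALE gene. With a minimum of 10 counts in every sample, Irx4 and Irx6 could not be tested, and 4 Irx genes were called of the 4 left. The higher share of calls was 48.0% with TMM and 55.8% with library size alone, which moved the median of all genes to 0.07. With windows of 250 and 500 kb, 5 neighbors were called. Gm45336 and Tbx5 had no adjusted p in DESeq2. Per coding length, WT levels ran from 0.249 RPKM for Irx4 to 11.1 RPKM for Irx3.

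Samples with the same replicate number did not deviate together (correlations of -0.0718, -0.211 and 0.0731), so the number was not taken as a pairing. A fit with a replicate block called 398 genes, all 6 Irx genes and 4 neighbors, with cluster medians of 2.44 and 2.23.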
